A study of Mus musculus with 20 samples.

Results

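The genes that supply reducing power for lipid synthesis were examined in mouse visceral fat. The set, Me1, Pgd, G6pdx, Tkt, Taldo1 and Idh1, was named by symbol, with earlier results of these data known. Of these 6 genes, 5 had at least 1 probe set carrying their symbol alone, and together they had 12 of the 45101 probe sets on the array. G6pdx, glucose-6-phosphate dehydrogenase, is not analysed here because no probe set in the annotation used carried its symbol, or an alias of it, alone. RNA of visceral fat, named as mesenteric in the study, was run on Affymetrix whole-genome mouse arrays, 1 for each of 20 C57BL/6J female mice. The 5 mice of each of 4 groups were HF pregnant, control pregnant, HF non pregnant and control non pregnant. HF mice ate a Research Diets high fat diet (58% fat in the labels) and control mice a low fat diet of the same maker (10% fat). By the study's methods the diets also differed in carbohydrate, with sucrose in the HF diet and more of it, as corn starch, in the control diet. A difference between HF and control mice can therefore not be credited to fat alone. Pregnant mice were taken at E18.5, late gestation, and the age field of the labels reads E18.5 for the non pregnant mice too. The tissue was whole fat, which holds blood vessels, immune cells and connective tissue beside adipocytes.

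NADPH is the electron donor of fatty acid synthase, of the reducing steps of fatty acid elongation and of several steps of sterol synthesis. In the cytosol of adipocytes it comes mainly from the oxidative branch of the pentose phosphate pathway, where G6pdx and Pgd each reduce NADP, and from malic enzyme (Me1), which turns malate into pyruvate. Idh1 makes NADPH from isocitrate. Tkt and Taldo1 make no NADPH themselves: they form the reversible branch that returns pentose phosphates to glycolysis. These enzymes also feed glutathione and thioredoxin reduction, so they serve defence against oxidation as well as lipid synthesis.

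The promoters of the 4 members that passed the test of diet over both pregnancy states are shown, because these members varied together across the mice. Each window is 300 bases from RefSeq (GRCm38.p6), 250 before and 50 after the outermost annotated start of the gene, written along the gene's strand. Capitals mark every match, on either strand, to any of 5 motifs. These were TGACNNNGC, the core of the antioxidant response element, and TCACNCCAC, a sterol regulatory element. The others were an E box, CACGTG, which basic helix-loop-helix factors bind, a GC box, GGGCGG, bound by Sp1 and its relatives, and the CCAAT box, bound by NF-Y. A match on the opposite strand appears in capitals as its reverse complement.
Me1, chr9:86695865-86696164, minus strand: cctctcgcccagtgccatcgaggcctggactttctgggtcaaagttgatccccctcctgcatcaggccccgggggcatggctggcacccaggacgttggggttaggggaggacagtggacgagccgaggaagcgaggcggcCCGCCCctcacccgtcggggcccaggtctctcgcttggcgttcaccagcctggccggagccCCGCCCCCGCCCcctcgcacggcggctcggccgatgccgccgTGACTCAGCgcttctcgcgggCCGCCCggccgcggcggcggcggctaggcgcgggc
Pgd, chr4:149166656-149166955, minus strand: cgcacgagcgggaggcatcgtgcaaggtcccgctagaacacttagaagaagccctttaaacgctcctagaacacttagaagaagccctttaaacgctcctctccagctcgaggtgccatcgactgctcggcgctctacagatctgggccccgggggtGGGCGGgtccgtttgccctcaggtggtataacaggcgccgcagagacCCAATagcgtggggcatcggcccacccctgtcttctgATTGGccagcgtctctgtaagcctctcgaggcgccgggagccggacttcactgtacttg
Tkt, chr14:30548881-30549180, plus strand: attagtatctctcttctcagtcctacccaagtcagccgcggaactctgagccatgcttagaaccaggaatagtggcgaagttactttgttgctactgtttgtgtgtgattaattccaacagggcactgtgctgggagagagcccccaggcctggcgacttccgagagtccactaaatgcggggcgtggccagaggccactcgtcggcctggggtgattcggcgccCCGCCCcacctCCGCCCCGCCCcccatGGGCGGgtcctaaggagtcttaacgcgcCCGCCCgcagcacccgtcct
Taldo1, chr7:141391910-141392209, plus strand: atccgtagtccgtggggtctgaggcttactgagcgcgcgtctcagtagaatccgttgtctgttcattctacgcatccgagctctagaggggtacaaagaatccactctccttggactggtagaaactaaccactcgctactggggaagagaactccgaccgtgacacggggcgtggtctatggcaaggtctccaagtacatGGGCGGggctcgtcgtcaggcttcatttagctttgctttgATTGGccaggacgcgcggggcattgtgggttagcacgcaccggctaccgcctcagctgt
The Me1 window held TGACTCAGC at bases 245 to 253, across the start, and 4 GC boxes, of which 2 lie end to end on the opposite strand. The Tkt window held 5 GC boxes, of which 2 overlap by 1 base on the opposite strand, and no other match. The Pgd window held 1 GC box and 2 CCAAT boxes, and the Taldo1 window 1 of each. The Idh1 window, at chr1:65186430-65186729 on the minus strand, held 2 GC boxes and 1 CCAAT box. None of these 5 windows held TCACNCCAC or CACGTG. Among all 32851 RefSeq promoter windows of this length, 12.4% held TGACNNNGC, 1.24% TCACNCCAC, 7.15% CACGTG, 35.7% GGGCGG and 37.4% CCAAT. A match is a stretch of letters and not evidence of binding.

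Each measured member is represented by its brightest probe set, and each of these was brighter in mean log2 intensity than 98.7% of all probe sets, which is a statement on the arrays and not on mRNA abundance. All 12 probe sets passed the filter on low values, an intensity above 100 on at least 5 of 20 arrays, which kept 19802 probe sets. These stood for 10603 genes. The order of the group means was the same for the 5 members: control pregnant highest, then control non pregnant, HF non pregnant and HF pregnant. In bulk fat, fewer cells of a type and less RNA per cell cannot be told apart, for any value below.

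Among the brightest probe sets, that of Me1, the cytosolic malic enzyme, differed most between HF and control mice. Its intensity was 1527, 1898, 1399, 1880 and 2454 in HF pregnant mice, against 16061, 9751, 14994, 7870 and 8664 in control pregnant mice. All 5 HF pregnant mice lay below all 5 control pregnant mice. Intensities were 4110, 6403, 3845, 9066 and 1938 in HF non pregnant mice, against 4995, 5653, 14716, 14520 and 17317 in control non pregnant mice. Here the groups overlapped, with mice 1 and 2 of the control non pregnant group within the range of the HF non pregnant mice. Means on the log2 scale were 10.81 ± 0.32 in HF pregnant, 13.42 ± 0.47 in control pregnant, 12.12 ± 0.84 in HF non pregnant and 13.30 ± 0.85 in control non pregnant mice (SD, n = 5 each).

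Pgd, 6-phosphogluconate dehydrogenase, the later of the NADPH-making steps of the pentose phosphate pathway, had intensities of 2703, 3207, 2435, 3117 and 5524 in HF pregnant mice, against 12075, 7346, 11348, 5806 and 6097 in control pregnant mice. The ranges did not overlap, but HF pregnant mouse 5 came close to the lowest control pregnant mouse. In HF non pregnant mice Pgd had 5088, 5441, 4074, 5036 and 2494, against 3226, 5231, 11199, 8105 and 11174 in control non pregnant mice. These groups overlapped, and control non pregnant mouse 1 lay below 4 of the HF non pregnant mice.

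Tkt, transketolase, had intensities of 6021, 7226, 6011, 6075 and 8308 in HF pregnant mice, against 22536, 18167, 22102, 15159 and 17903 in control pregnant mice. The highest HF pregnant mouse was well below the lowest control pregnant mouse. In HF non pregnant mice Tkt had 10325, 12040, 9022, 18430 and 6724, against 14811, 13196, 21131, 22666 and 23537 in control non pregnant mice. HF non pregnant mouse 4 was the only mouse of its group inside the range of its controls.

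Taldo1, transaldolase, had intensities of 2754, 3149, 2876, 2419 and 4074 in HF pregnant mice, against 7802, 5142, 6878, 4075 and 4518 in control pregnant mice. The groups did not overlap, but only just: the highest HF pregnant mouse had 4074.22 and the lowest control pregnant mouse 4074.8. In HF non pregnant mice Taldo1 had 3771, 3823, 3236, 4943 and 2700, against 3735, 3846, 6557, 5986 and 7004 in control non pregnant mice, with overlap.

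Idh1, cytosolic isocitrate dehydrogenase, differed least between HF and control mice. It had 3965, 4642, 3165, 3703 and 4991 in HF pregnant mice, against 7882, 4711, 7739, 4343 and 5381 in control pregnant mice. Of the 5 HF pregnant mice, 3 lay below all control pregnant mice. In HF non pregnant mice Idh1 had 6231, 6520, 4825, 4874 and 2761, against 4799, 5619, 6390, 5421 and 5288 in control non pregnant mice, so that 1 HF non pregnant mouse lay above every control and 1 far below.

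**Figure D1:**
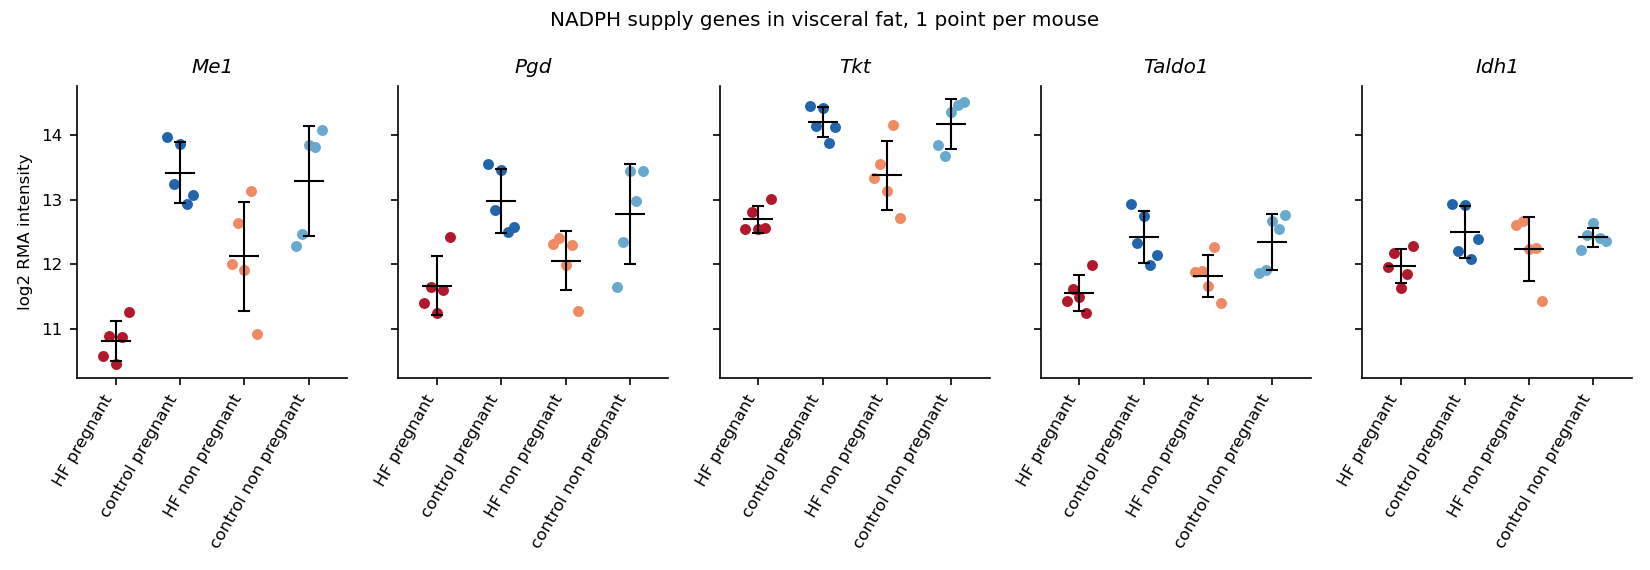
The log2 RMA intensity (vertical axis) of the 5 measured members in each mouse (points), with the mean and SD of 5 mice per group (bars). HF pregnant mice lie below every control pregnant mouse for Me1, Pgd, Tkt and Taldo1 but overlap them for Idh1, and Me1 has the widest gap, 10.81 against 13.42.

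The effect of the HF diet in late pregnancy was tested first, with limma across all 19802 probe sets and Benjamini-Hochberg adjustment at 0.05. Me1 and Tkt fell in HF pregnant compared with control pregnant mice, 2 of the 5 members, where 0.177% of probe sets were lower at this threshold. Me1 was 6.12-fold lower, a log2 fold change of -2.61 (SE 0.39, 95% interval -3.44 to -1.78, adjusted p = 0.00542). It ranked 11 of 19802 probe sets by p. Tkt was 2.84-fold lower, with a log2 fold change of -1.51 (SE 0.22, adjusted p = 0.00448), and ranked 9. Pgd had a log2 fold change of -1.32 (SE 0.34, adjusted p = 0.125), Taldo1 -0.87 (SE 0.22, adjusted p = 0.124) and Idh1 -0.53 (SE 0.21, adjusted p = 0.315), none of which passed. For 4 members all HF pregnant mice lay below all control pregnant mice, a state found for 1.95% of probe sets.

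Other probe sets of the same genes gave the same direction and, for Tkt, another size. The other Me1 probe set had a log2 fold change of -2.88 between HF pregnant and control pregnant mice (adjusted p = 0.00624). The other 3 Pgd probe sets lay between -1.51 and -1.20, none passing, and the other Idh1 probe set was at -0.51. For Tkt the reported probe set, the brightest, gave the smallest of its 3 changes: the next brightest gave -2.36 (adjusted p = 0.00729), close to the -2.61 of Me1. The dimmest Tkt probe set was between 50.94 and 95.86 in HF pregnant mice, below 100 in all 5, and between 262.44 and 1086.26 in control pregnant mice. It passed the filter through the other groups and gives only a bound: with values under 100 set to 100 it was at least 4.61-fold lower in HF pregnant mice (adjusted p = 0.0830 for the values as given). The reported Tkt and Pgd probe sets carry the suffix _x_at and those of Idh1 _s_at, by which the manufacturer marks probes that can match more than 1 transcript. Within a gene the probe sets correlated at 0.939 to 0.998 over the 20 arrays.

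In non pregnant mice limma called no probe set for diet, with 3500 (17.7%) at an unadjusted p under 0.05. The 5 members had negative log2 fold changes in HF non pregnant compared with control non pregnant mice, as did 48.4% of probe sets. Me1 was at -1.18 (SE 0.39, 95% interval -2.0 to -0.35) and Tkt at -0.80 (SE 0.22, interval -1.26 to -0.33). Pgd was at -0.72 (SE 0.34) and Taldo1 at -0.53 (SE 0.22). All 4 had the same limma adjusted p of 0.281, and Idh1, at -0.18 (SE 0.21), had 0.576.

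When both pregnancy states were averaged, the diet comparison called 4 of the 5 members lower in HF mice, where 1.11% of probe sets were called lower. Tkt fell by 1.15 on the log2 scale (SE 0.16, limma adjusted p = 0.00233) and Me1 fell by 1.89 (SE 0.28, adjusted p = 0.00429). Taldo1 fell by 0.70 (SE 0.16, adjusted p = 0.0365) and Pgd fell by 1.02 (SE 0.24, adjusted p = 0.0441). Idh1 had a log2 fold change of -0.35 (SE 0.15, adjusted p = 0.140) and did not pass. The calls of Me1 and Tkt held without any 1 mouse, but those of Pgd and Taldo1 were both lost, leaving 2 members called, without any 1 of 12 mice: HF pregnant 1, 2, 3 or 4, control pregnant 1 or 3, HF non pregnant 1, 3 or 5, or control non pregnant 3, 4 or 5.

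Whether pregnancy went with a difference on each diet was asked next. On the HF diet no member was called in pregnant against non pregnant mice, where 0.0252% of probe sets were called in either direction. Me1 had a log2 fold change of -1.31 (SE 0.39, 95% interval -2.14 to -0.49, limma adjusted p = 0.577) and Tkt of -0.68 (SE 0.22, adjusted p = 0.688). HF pregnant mice were not separate from HF non pregnant mice for Me1, since HF non pregnant mouse 5 (1938) lay within the HF pregnant range. Pgd (-0.39), Taldo1 (-0.27) and Idh1 (-0.26) each had an adjusted p of 0.9999.

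On the control diet the members were close in pregnant and non pregnant mice. Log2 fold changes were 0.12 for Me1 (95% interval -0.70 to 0.95), 0.21 for Pgd (-0.49 to 0.92), 0.03 for Tkt (-0.43 to 0.50), 0.07 for Taldo1 (-0.39 to 0.53) and 0.09 for Idh1 (-0.36 to 0.54). The limma adjusted p lay between 0.964 and 0.991, and no probe set was called (575, 2.9%, at an unadjusted p under 0.05). These intervals are wide, most of all for Me1 and Pgd, and do not show that the groups were alike.

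The interaction, meaning the diet effect in pregnant minus that in non pregnant mice, was negative for all 5 members and called for none. It was -1.44 for Me1 on the log2 scale (SE 0.56, unadjusted p = 0.0189, limma adjusted p = 0.933) and -0.71 for Tkt (SE 0.31, unadjusted p = 0.0353, adjusted p = 0.933). No probe set passed this test, with 3.08% at an unadjusted p under 0.05. Averaged over both diets, Me1 had a log2 fold change of -0.60 in pregnant compared with non pregnant mice (SE 0.28, adjusted p = 0.9999). No member was called in that comparison, where 0.0101% of probe sets were.

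**Figure D2:**
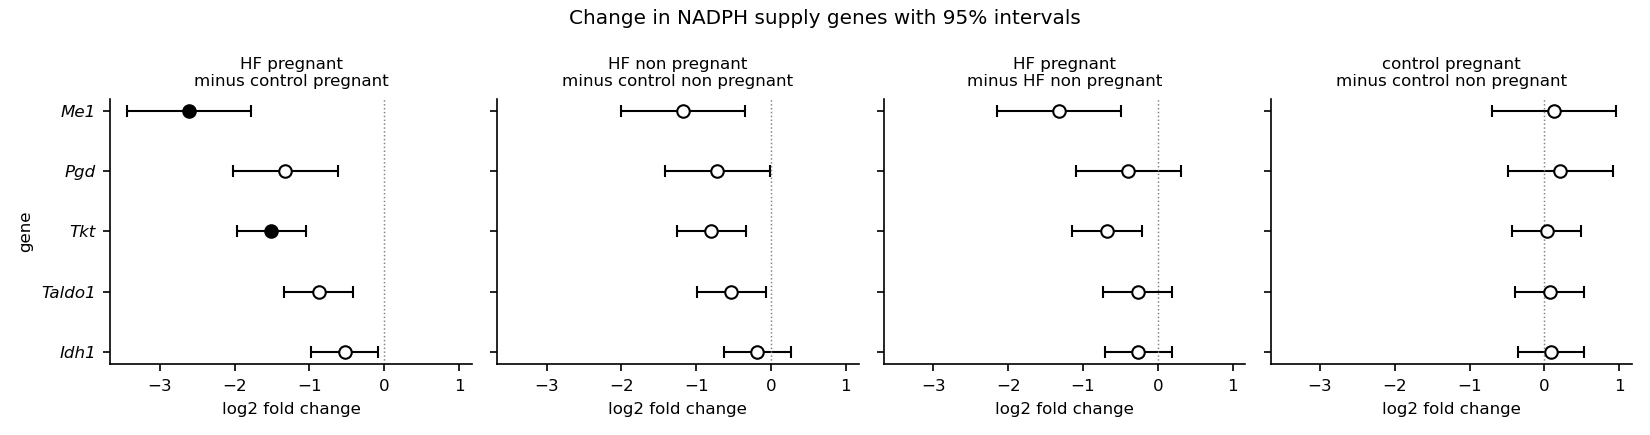
Log2 fold change (horizontal axis) of each member in 4 comparisons, with the 95% interval from limma; filled points have an adjusted p under 0.05. Me1 (-2.61) and Tkt (-1.51) in HF pregnant minus control pregnant mice are the filled points, and the intervals of all 5 members span 0 in control pregnant minus control non pregnant mice.

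Whether the members changed in proportion to Me1 was asked within mice. The log2 ratio of Me1 to each of the other 4 members was taken within each mouse. The test was the two-sided exact permutation over all regroupings of 5 against 5 mice, with 16 comparisons in all, with Benjamini-Hochberg adjustment over these 16. Only differences of a ratio between groups can be read, since intensities of different probe sets are not on a shared scale. Their size also depends on how steeply each probe set responds to its mRNA, which was not measured. A lower ratio is therefore a statement on probe sets and need not hold for the mRNAs. In HF pregnant compared with control pregnant mice the ratio of Me1 was lower by 1.29 to Pgd, by 1.10 to Tkt, by 1.74 to Taldo1 and by 2.08 to Idh1. In each case the 5 HF pregnant mice lay below the 5 control pregnant mice and the exact permutation p was 0.00794, the smallest this design allows (adjusted p = 0.0212). For Pgd, Taldo1 and Idh1 the difference lay between -2.35 and -1.10 with every other probe set of either gene, without overlap. For Tkt it depended on the probe set: with the next brightest it was -0.25, with overlap between the groups (exact permutation p = 0.0159, unadjusted), and with the dimmest, taken at its bound, the ratio was lower by no more than 0.41. These settings were added after the data had been seen. By the brightest probe sets, the control pregnant mice kept nearly the same ratio of Me1 to Pgd, between 0.40 and 0.51 on the log2 scale. Me1 itself varied between 7870 and 16061 among them. The SD of this ratio was 0.04 in these mice, against 0.25 to Tkt, 0.09 to Taldo1 and 0.15 to Idh1. Whether its range is as narrow with other probe sets was not tested.

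The ratio of Me1 to Pgd, Taldo1 and Idh1 also differed with pregnancy on the HF diet. Against HF non pregnant mice, the ratio in HF pregnant mice was lower by 0.92 to Pgd and by 1.06 to Idh1, without overlap (exact permutation p = 0.00794, adjusted p = 0.0212 each). The difference was -1.05 to Taldo1 (adjusted exact permutation p = 0.0363) and -0.63 to Tkt (adjusted exact permutation p = 0.0476), with overlap. With the next brightest Tkt probe set the difference to Tkt was -0.33 (exact permutation p = 0.0556, unadjusted). In HF non pregnant against control non pregnant mice the ratios differed by -0.38 to -0.99 with adjusted exact permutation p of 0.0988 to 0.243. In control pregnant against control non pregnant mice they differed by -0.09 to 0.09, with adjusted exact permutation p of 0.625 to 0.929.

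**Figure D3:**
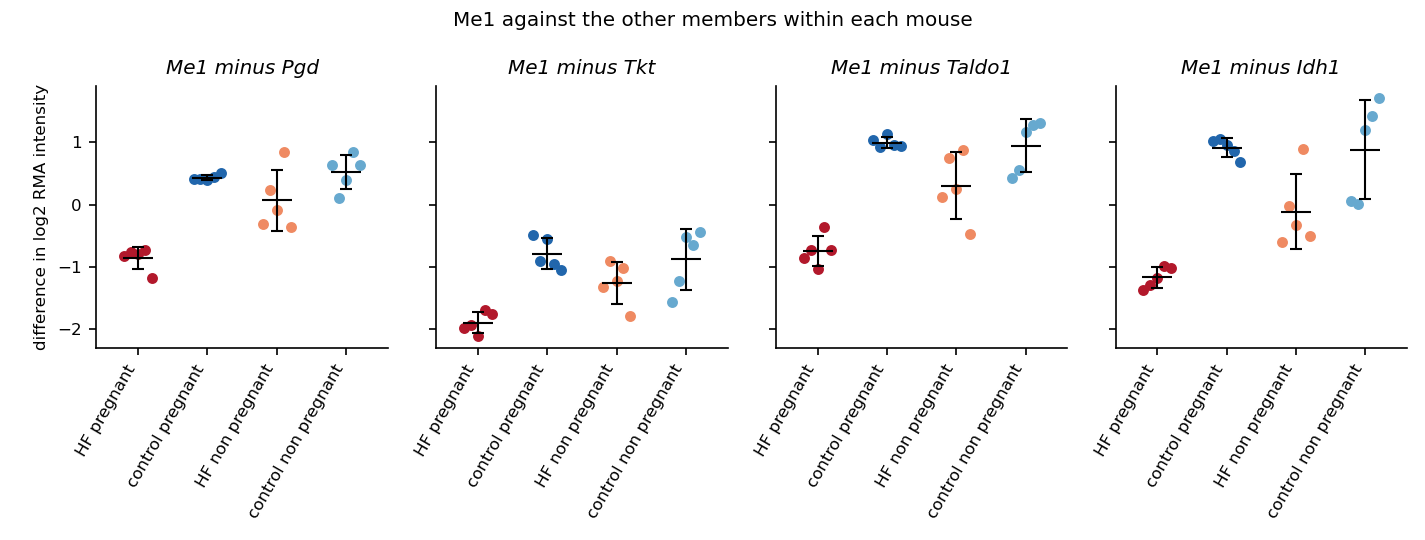
The log2 RMA intensity of Me1 minus that of Pgd, Tkt, Taldo1 or Idh1, each by its brightest probe set (vertical axis), in each mouse (points), with the mean and SD of 5 mice per group (bars). HF pregnant mice lie below all control pregnant mice in each panel, and the level in a panel is set by the probe sets, so only groups within a panel compare.

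Mice of a group varied in the members together. HF pregnant mouse 5 was highest of its group for all 5 genes, by 0.45 above the group mean on the log2 scale averaged over the members. Control pregnant mice 1 and 3 were the highest of their group for all 5, by 0.46 and 0.38, and mouse 4 the lowest. HF non pregnant mouse 5 was lowest of its group for all 5, by 0.78 below its mean, and mouse 4 was the highest for Me1, Tkt and Taldo1. In control non pregnant mice, numbers 1 and 2 lay low, except for Idh1 in mouse 2, which was 0.04 above the group mean. Me1 was 1.01 and 0.84 below the group mean in mice 1 and 2. This spread of Me1, an SD of 0.84 in HF non pregnant and of 0.85 in control non pregnant mice, was wider than the 0.32 of HF pregnant and the 0.47 of control pregnant mice.

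Over the 20 arrays Me1 and Tkt had the highest correlation of any member pair, r = 0.986, and 0.950 after removing group means. Pgd and Taldo1 correlated at 0.955 and, within groups, at 0.905. Idh1 was the least like the others, with 0.705 to Tkt and 0.807 to Pgd. These are descriptions of 20 arrays in 4 groups and share the differences between those groups. Of the other 10602 genes, the 3 most like Me1 were Acly, ATP citrate lyase (r = 0.987), Tkt, and Enpep, a membrane aminopeptidase (0.980). Those most like Tkt were Me1, Mpc1, a subunit of the mitochondrial pyruvate carrier (0.984), and Fasn, fatty acid synthase (0.978). Pgd was nearest to Slc25a10, the mitochondrial dicarboxylate carrier (0.956), Taldo1 and 1110008P14Rik (0.951). Taldo1 was nearest to Pdhb, a subunit of pyruvate dehydrogenase (0.985), Acaca, acetyl-CoA carboxylase (0.973), and Pygl, a glycogen phosphorylase (0.971). Idh1 was nearest to Flacc1 (0.950), Gcsh, of the glycine cleavage system (0.942), and Akr1a1, an aldehyde reductase (0.935). None of the 3 genes nearest to Idh1 was a member, and its nearest member, Pgd, ranked 431.

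The rest of the pentose phosphate pathway was set beside the members in HF pregnant compared with control pregnant mice. The median log2 fold change of the 5 members was -1.32, and that of all 10603 genes was 0.05, of which 40.9% had negative values, 23 fell and 3 rose. Here and below, a listed gene counts as measured where a probe set of its symbol alone passed the filter on low values. Of 12 other genes of the pathway 7 were measured and none passed, with a median of 0.08. Rpia and Rpe, which interconvert the pentose phosphates next to Tkt, were at -0.39 (limma adjusted p = 0.261) and -0.46 (adjusted p = 0.371). Prps1, which draws ribose phosphate into nucleotide synthesis, was at 0.60 (adjusted p = 0.325). Of 13 other NADPH producers and enzymes close to them 11 were measured and none passed, with a median of 0.01. In this list Shmt1, Shmt2 and Mthfd1l make no NADPH themselves, and Me2, Mthfd2 and Glud1 can also work with NAD. Idh2, the mitochondrial counterpart of Idh1, was at 0.44 (adjusted p = 0.294), Aldh1l1, the folate enzyme of the cytosol, at -1.10 (adjusted p = 0.221) and Mthfd2l, a mitochondrial folate enzyme, at -0.28 (adjusted p = 0.476). The NAD kinases, which make NADP, were at -0.19 (Nadk) and -0.12 (Nadk2), and Noct, an NADP phosphatase, was at 0.35. None of these 3 passed.

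Genes of the carbon supply next to Me1 were lower in part. Of 16 carriers and enzymes of citrate, malate and pyruvate 13 were measured and 2 fell in HF pregnant compared with control pregnant mice, with a median of -0.31. Acly, which splits citrate and so starts the route to the malate that Me1 uses, fell by 2.41 on the log2 scale (limma adjusted p = 0.00915) and Mpc1 fell by 1.80 (adjusted p = 0.0107). Of 12 genes of glucose entry and upper glycolysis 11 were measured and none passed, with a median of -0.54. Aldoa, an aldolase, was at -0.79 (adjusted p = 0.0852), Tpi1, triose phosphate isomerase, at -0.54 (adjusted p = 0.202) and Slc2a4, the insulin-responsive glucose transporter, at -1.03 (adjusted p = 0.210).

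The lists of NADPH-using pathways had different medians in HF pregnant against control pregnant mice. Not every gene of the fatty acid and sterol lists uses NADPH itself, Acss2 and Elovl6 being among those that do not. Of 17 genes of fatty acid synthesis and its partners 16 were measured and 4 fell, with a median of -0.71. These were Elovl6, a fatty acid elongase (fell by 4.87, limma adjusted p = 0.00173), Acss2, which makes acetyl-CoA from acetate (fell by 2.87, adjusted p = 0.00361), Fasn (fell by 1.86, adjusted p = 0.00282) and Tecr, the NADPH-using reductase of elongation (fell by 1.504, adjusted p = 0.0317). Of 13 sterol synthesis genes 10 were measured, 10 had negative values with a median of -1.26, and 2 fell: Tm7sf2, a sterol reductase (fell by 2.15, adjusted p = 0.0141), and Nsdhl, a sterol dehydrogenase (fell by 1.71, adjusted p = 0.0260). Of 10 users of NADPH in redox defence 8 were measured and none passed, with a median of -0.15. Txnrd2, the mitochondrial thioredoxin reductase, was at -0.59 (adjusted p = 0.218), Akr1b8, an aldo-keto reductase, at -0.26 (adjusted p = 0.579) and Nqo1, a quinone reductase, at 0.18 (adjusted p = 0.602).

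Of 15 regulators of lipogenic and NADPH genes 13 were measured and none passed in HF pregnant compared with control pregnant mice, with a median of -0.01. Thrsp, a lipogenic nuclear protein, was at -1.12 (limma adjusted p = 0.0872), Insig1, which holds back sterol regulatory element binding proteins, at -1.37 (adjusted p = 0.0982) and Bach1, a repressor at antioxidant response elements, at 0.27 (adjusted p = 0.239). Some of the factors known for the motifs searched above, picked after their values were seen, were at -0.23 (Srebf1), -0.56 (Mlxipl) and 0.01 (Nfe2l2). Values of Srebf2, of the same list, and of Sp1 and NF-Y, named above for the GC and CCAAT boxes, are not given. The mRNA of a factor does not report the activity of its protein.

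In HF compared with control mice over both pregnancy states, more genes passed. None of 7 other pentose phosphate genes, 11 other NADPH producers and enzymes close to them, 3 genes of NAD kinases and NADP turnover or 8 redox users did so. Of citrate, malate and pyruvate, 5 of 13 genes fell (Mpc1, Acly, Slc25a1, Slc25a10 and Pcx), with 5 of 16 of fatty acid synthesis, 6 of 10 of sterol synthesis, 3 of 11 of glucose entry and glycolysis (Aldoa, Slc2a4 and Slc2a5) and 2 of 13 regulators (Thrsp and Insig1). Over all 10603 genes 126 fell and 16 rose. The counts describe lists drawn up with earlier results of these data known.

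**Figure D4:**
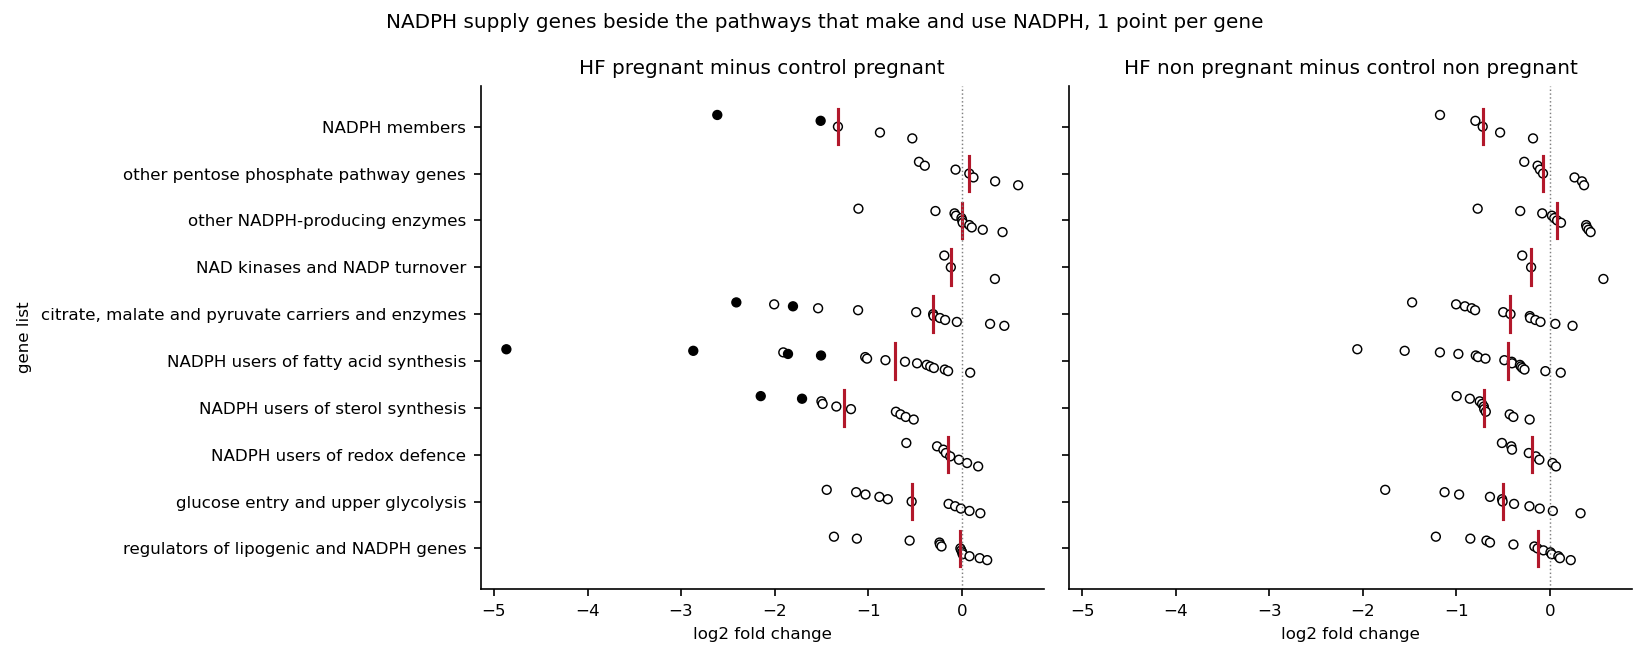
Log2 fold change (horizontal axis) of each measured gene (points, filled where the adjusted p is under 0.05) of the members and of 9 lists, in HF pregnant minus control pregnant mice (left) and HF non pregnant minus control non pregnant mice (right); the bar is the list's median. In pregnant mice the medians are -1.32 for the members and -1.26 for sterol synthesis, against 0.08 for other pentose phosphate genes. The list of other NADPH producers, which also holds enzymes close to them, is at 0.01, and no point is filled in non pregnant mice.

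Cell type markers were read beside these values, with unadjusted p-values. Of 10 adipocyte markers 7 were measured, and their summed intensity was 61353 to 82809 in HF pregnant and 60607 to 94140 in control pregnant mice, 47716 to 83822 in HF non pregnant and 73990 to 82121 in control non pregnant mice. Their mean log2 level differed by -0.23 between HF pregnant and control pregnant mice (exact permutation p = 0.413). Within groups this level correlated with Idh1 at 0.904 and with the other 4 members at 0.560 to 0.611. Of 10 brown fat genes 5 were measured, while Ucp1, Dio2 and Prdm16 did not pass the filter. Their summed intensity was 681 to 1993 in HF pregnant and 1163 to 3429 in control pregnant mice, a mean log2 difference of -1.21 (exact permutation p = 0.00794). It correlated within groups with Me1 at 0.862 and with Tkt at 0.887.

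Of 14 macrophage markers 13 were measured, with sums of 21099 to 31440 in HF pregnant and 11256 to 30457 in control pregnant mice, a log2 difference of 0.35 (exact permutation p = 0.183). With this level as a covariate Me1 had a log2 fold change of -2.39 between them (limma adjusted p = 0.0502) and Tkt of -1.34 (adjusted p = 0.0375). In the averaged diet comparison Tkt alone stayed called under this covariate (adjusted p = 0.0413), while Me1 (adjusted p = 0.0770), Pgd (0.459) and Taldo1 (0.454) did not pass. B cell genes, 7 of 9 measured, summed to 2174 to 17945 in HF non pregnant and 816 to 5544 in control non pregnant mice, a log2 difference of 1.58 (exact permutation p = 0.0952). With B and T cell genes as a covariate Me1 was at -2.55 (limma adjusted p = 0.00427) and Tkt at -1.47 (adjusted p = 0.00335) between HF pregnant and control pregnant mice. In the averaged diet comparison Me1 and Tkt stayed called under it, while Pgd (limma adjusted p = 0.0971) and Taldo1 (adjusted p = 0.0846) did not pass. Proliferation genes, 6 of 10 measured, summed to 628 to 3402 in HF non pregnant and 309 to 746 in control non pregnant mice. Their log2 difference was 1.15 (exact permutation p = 0.0476), and -0.13 between HF pregnant and control pregnant mice (exact permutation p = 0.825). Within groups they correlated with the 5 members at -0.713 to -0.396. Endothelial genes, 10 of 10 measured, were higher in HF pregnant than control pregnant mice by 0.30 (exact permutation p = 0.0397). Only 2 of 12 pancreatic genes were measured, and their sum was 10597 in control pregnant mouse 2 and 9952 in control non pregnant mouse 4, against at most 707 in HF mice. Without both arrays the calls stayed at 2 members in HF pregnant against control pregnant mice and 4 in the averaged diet comparison. In HF pregnant against HF non pregnant mice, mesothelial genes, 8 of 8 measured, summed to 5127 to 6134 in HF pregnant and 2538 to 5833 in HF non pregnant mice, a log2 difference of 0.47. The erythroid list, 1 of 6 measured, was at 146 to 1803 in HF pregnant and 55.8 to 192 in HF non pregnant mice, a difference of 2.14, and the mammary epithelial list, 2 of 8 measured with no milk protein gene among them, differed by 0.35. Each of these 3 had an exact permutation p of 0.0238. The part of these cell types in the members' differences was not tested beyond these covariates.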

How the data were processed

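The authors scanned 20 Affymetrix arrays and normalized them together by robust multi-array average (RMA) with the affy package in R 2.8.0, per the labels' processing notes. The deposited values are linear intensities, 1 per probe set and array, with array medians of 60.69 to 64.73, and the number of arrays limits the precision. Their log2 was taken without further normalization. After leaving out 64 control probe sets, those above 100 on at least 5 of 20 arrays were kept (19802, 43.97%). Symbols came from the platform annotation: 34958 probe sets had 1 symbol, 932 several and 9211 none. Where a gene had several, the brightest on average stood for it.

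limma 3.58.1 in R 4.3.3 fitted 4 group means with default eBayes, and p-values were adjusted by Benjamini-Hochberg over all kept probe sets, threshold 0.05. No arrays were identical. The labels name 5 biological replicates per group; no batch or scan date is given in the sources used here. RNA extraction is given as Trizol in the labels and as Qiagen columns in the study's methods. Genes named are all members, the called genes of each list or otherwise up to 3 with the smallest p, and the 3 genes most correlated with each member. Members and lists were chosen with earlier results of these data known. In simulated data for HF pregnant against control pregnant mice on 19802 probe sets, 100% of changes of -2 and 72% of -1 on the log2 scale were recovered. Of changes of 1, 64% were recovered, and there were 9 false calls. The simulated probe sets varied independently of each other, unlike the members here, so these rates need not hold for the arrays. Alternatives covered filters, moderation, weights, normalization, probe sets, covariates, a replicate block and leaving out arrays.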

Additional observations from a re-analysis of the deposited data

How the results depend on the processing

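Me1 and Tkt kept their direction and call in HF pregnant against control pregnant mice under 34 of 35 and 35 of 36 alternatives, with adjusted p up to 0.0502 for Me1 (macrophage covariate) and 0.0830 for Tkt (its dimmest probe set, under 100 in HF pregnant mice). Some of these alternatives could hardly change the result. The unadjusted threshold used the main fit, and leaving out a mouse of a group not compared left the group difference unchanged. In place of the 2 members called in HF pregnant against control pregnant mice, array weights called 5, beside 1365 of all 19802 probe sets. An unadjusted threshold (p under 0.05 and 1.5-fold) called 4 members, beside 561 probe sets, and the macrophage covariate 1, beside 10. In HF non pregnant against control non pregnant mice, in place of 0 called, array weights gave 4 members (7489 probe sets) and the unadjusted threshold 3 (774). In HF pregnant against HF non pregnant mice they gave 3 (2679 probe sets) and 2 (251) in place of 0. For pregnancy averaged over diet each gave 1 in place of 0 (1706 and 105 probe sets). For the interaction of diet and pregnancy the unadjusted threshold gave 2 in place of 0 (177 probe sets).

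For diet averaged over pregnancy, in place of 4 members called, 2 were called with no filter, with the replicate block and with the B and T cell covariate, and 1 with the macrophage covariate, while leaving out each mouse gave 2 to 4. Probe sets called in HF pregnant against control pregnant mice numbered 38, and 25 with no filter, 1365 with array weights, 17 with the block, 141 with the B and T cell covariate, 10 with the macrophage covariate, 64 with only the groups compared and 15 to 62 without each mouse. For diet averaged they numbered 246, and 112, 9136, 19, 123 and 7 under the first 5 of these, 2011 without the pancreatic arrays and 41 to 4321 without each mouse. Replicate numbers were not taken as pairs: deviations of 30 same-numbered pairs correlated at a median of -0.161 (range -0.749 to 0.674), and with the block 2 members stayed called in HF pregnant against control pregnant mice.

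Values that changed sign were all uncalled. In control pregnant against control non pregnant mice, array weights gave -0.33 (Me1), -0.11 (Pgd), -0.17 (Tkt) and -0.19 (Taldo1), and the dimmest Tkt probe set gave -0.0794. The difference of medians was -0.57 (Me1), -0.14 (Pgd), -0.22 (Tkt and Taldo1) and -0.0108 (Idh1), and for the ratio of Me1 -0.26 to Tkt, -0.22 to Taldo1 and -0.25 to Idh1. Without each mouse the ranges were -0.13 to 0.32 (Me1), -0.0692 to 0.38 (Pgd), -0.0917 to 0.12 (Tkt), -0.0528 to 0.18 (Taldo1) and -0.0204 to 0.19 (Idh1). For Idh1 in HF non pregnant against control non pregnant mice the range was -0.29 to 0.0209, and the B and T cell covariate gave 0.0527. With the next brightest Tkt probe set the ratio of Me1 to Tkt changed sign in HF non pregnant against control non pregnant mice (0.0549) and in the control groups (-0.0273). The causes were not tested.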
